A study of Homo sapiens with 12 samples.

Results

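The 43 genes described here encode the enzymes that build, transfer and first trim the N-linked glycan in the endoplasmic reticulum (ER), together with the enzymes that supply its sugars. They were taken by name as 6 groups: 8 genes for dolichol and its sugar carriers, 14 ALG-pathway transferases, 11 subunits of oligosaccharyltransferase (OST), 3 trimming glucosidases or their subunits, 4 enzymes of the hexosamine pathway and 3 enzymes of GDP-mannose supply. All 43 were among the 28278 gene symbols of the count table, and 42 had enough counts to be tested in each comparison. ALG10B was not tested, with 10 counts in all over the 12 libraries. Levels are given as CPM, the counts scaled to library size.

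RNA was sequenced from WA09-Islet1-GFP cultures, a human embryonic stem cell line (wild-type genotype in the labels) that makes GFP where the motor neuron transcription factor Islet1 is expressed. After differentiation, freezing and thawing, the cultures were exposed to cis-chlordane, an organochlorine pesticide, or to its solvent DMSO for 16 hours and sorted by FACS into GFP-positive and GFP-negative cells. The 12 libraries form 4 groups of 3, namely DMSO and cis-chlordane in each sort fraction. The labels give the dose as 10 µM, whereas the study's methods give a higher one, and all titles open with "untreated", so the later word "control" or "treated" in them, which the treatment entry shares, was used. A biological replicate was an independent thaw of stored cells, and all libraries came from 1 cell line. Each library held between 23414935 and 38347050 counts, with a median of 31553596.

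N-glycosylation starts on dolichol, a long lipid of the ER membrane. ALG enzymes add N-acetylglucosamine, mannose and glucose to dolichol in a fixed order, first on the cytosolic side and then in the lumen, and OST moves the finished oligosaccharide onto asparagines of proteins entering the ER. Glucosidases then remove the glucoses, which lets the lectin chaperones calnexin and calreticulin bind. The sugars come from UDP-N-acetylglucosamine, the product of the hexosamine pathway, and from GDP-mannose, and inherited defects in many of these genes cause congenital disorders of glycosylation.

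In GFP-positive motor neurons, cis-chlordane was followed by higher RNA for most of these genes. Of the 42 tested, 26 were upregulated at an adjusted p under 0.05, 1 was downregulated and 15 did not pass (edgeR quasi-likelihood F-test, Benjamini-Hochberg over 15333 genes). Of all genes tested, 26.7% were called higher and 24.6% lower. With the further limit of at least 2-fold, 16 members were upregulated and 0 downregulated, against 12.7% and 11.1% of all genes. The median log2 fold change of the members was 0.73, against 0.03 over all genes tested. In 28 members the 3 treated libraries were all above the 3 controls and in 2 all below, while 26.7% and 30.8% of all genes separated in these directions.

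In GFP-negative cells, 24 of the 42 were upregulated and 0 downregulated, where 15.4% of 15513 genes were called higher and 16.4% lower. At least 2-fold, 18 members were upregulated, and 0 downregulated, against 8.59% and 9.73% of all genes. The median log2 fold change was 0.88 for the members and -0.01 for all genes, and 29 members separated upward, against 24.2% of all genes. The call was "higher" in both fractions for 20 members, in GFP-positive cells alone for 6, in GFP-negative cells alone for 4, and in neither for 11, with MPDU1 lower in GFP-positive cells alone. These are tallies of separate tests, and the difference between the fractions is tested further on. The summed level of the 43 genes ran from 2651 to 2981 CPM in control and from 4096 to 4370 CPM in treated GFP-positive libraries, and from 3139 to 3887 CPM in control and 5480 to 6649 CPM in treated GFP-negative libraries.

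**Figure D1:**
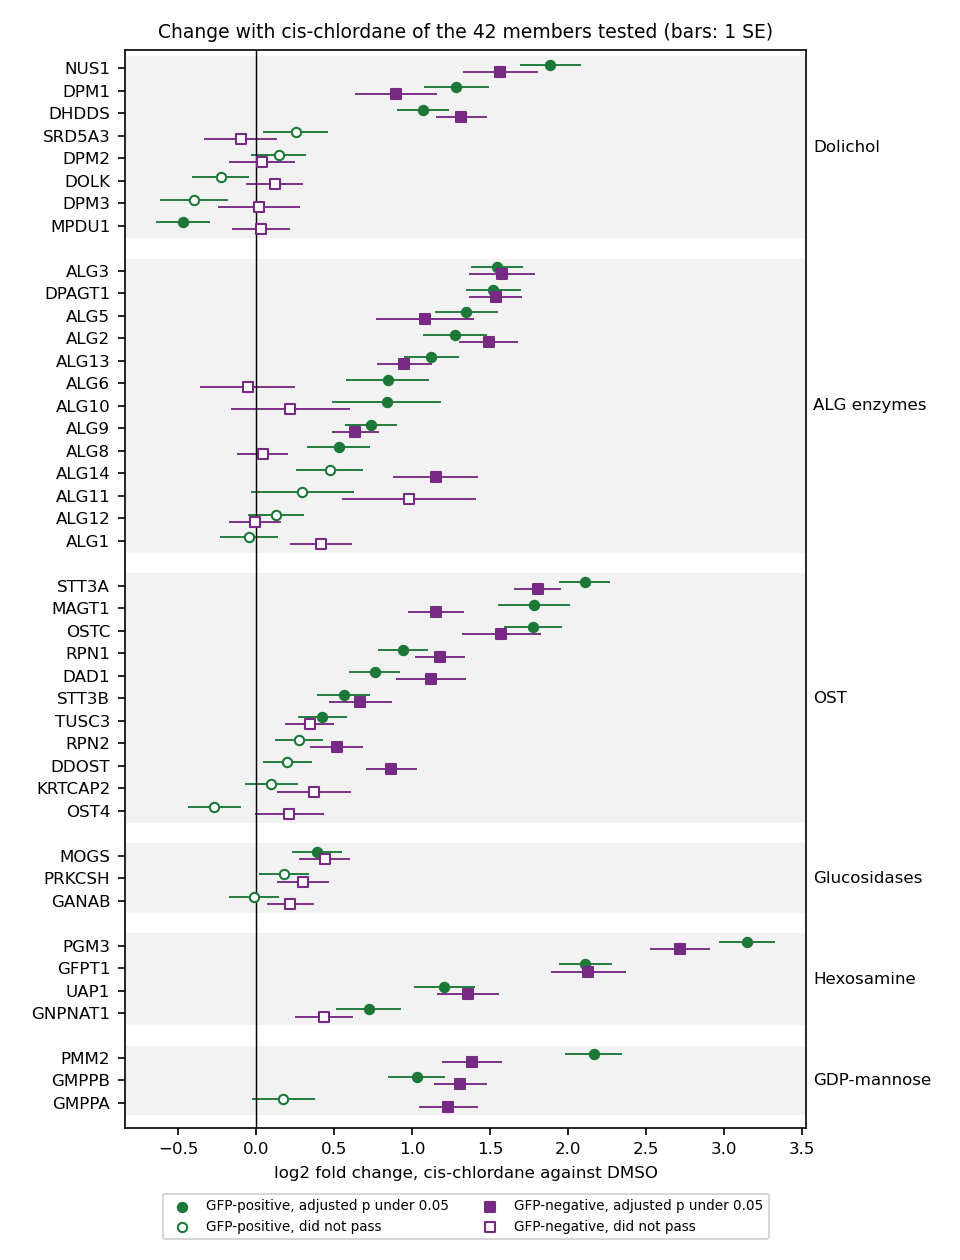
Log2 fold change of each of the 42 members tested (x axis, cis-chlordane against DMSO, bars 1 SE of the edgeR fit), grouped by role, in GFP-positive (green circles) and GFP-negative cells (purple squares), filled where the adjusted p was under 0.05. The hexosamine enzyme PGM3 lies farthest right at 3.15 and 2.72, the glucosidase genes lie between -0.01 and 0.44, and MPDU1 is the one filled point to the left.

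The roles differed in size. The median log2 fold change in GFP-positive and GFP-negative cells was 1.66 and 1.75 for the hexosamine enzymes, 1.03 and 1.31 for GDP-mannose supply, 0.84 and 0.95 for the 13 ALG enzymes tested, 0.56 and 0.87 for the OST subunits, 0.20 and 0.08 for the dolichol group, and 0.18 and 0.30 for the glucosidases. These medians describe small groups and were not tested against each other. In GFP-positive cells they moved when a trend of the counts with the GC content of the transcript was removed in each library: to 1.15 for hexosamine, 1.32 for GDP-mannose, 0.31 for ALG, 0.29 for OST and 0.52 for the glucosidases, and to 0.45 for all members.

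PGM3 showed the largest change of all members. It encodes phosphoacetylglucosamine mutase of the hexosamine pathway and lies at chr6:83147324-83193936 on the minus strand (hg38, GENCODE 44). In GFP-positive cells the control libraries held 18.7, 16.6 and 18.6 CPM and the treated libraries 153, 125 and 177 CPM. In GFP-negative cells the controls held 17.1, 15.7 and 20.03 CPM and the treated libraries 121, 96.0 and 137 CPM. No treated library came near a control. PGM3 was 8.89-fold higher in GFP-positive cells (log2 3.15, SE 0.18, adjusted p = 4.35e-27) and 6.58-fold higher in GFP-negative cells (log2 2.72, SE 0.19, adjusted p = 1.16e-05). Its exons overlap those of a protein-coding gene on the opposite strand.

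GFPT1, the first and rate-limiting step, which makes glucosamine-6-phosphate, rose next most among the hexosamine enzymes (chr2:69319780-69387250, minus strand). GFP-positive controls held 53.3, 51.6 and 79.0 CPM and treated libraries 269, 219 and 268 CPM. GFP-negative controls held 24.9, 33.9 and 49.6 CPM and treated libraries 170, 141 and 172 CPM. The groups were apart in both fractions although the controls themselves ranged widely. The log2 fold change was 2.11 (SE 0.17, adjusted p = 1.80e-18) and 2.13 (SE 0.24, adjusted p = 0.000158). UAP1, which charges N-acetylglucosamine onto UDP, rose from 21.1 ± 2.37 to 46.2 ± 15.3 CPM in GFP-positive (mean ± SD, n = 3; log2 1.21) and from 19.9 ± 1.72 to 52.0 ± 10.6 CPM in GFP-negative cells (log2 1.36). GNPNAT1, the acetyltransferase between GFPT1 and PGM3, moved least of the 4 enzymes. It rose from 11.1 ± 0.487 to 17.4 ± 1.99 CPM in GFP-positive cells (log2 0.72, adjusted p = 0.00259), a call that was lost with the GC trend removed (log2 0.27, adjusted p = 0.172), and in GFP-negative cells the log2 fold change was 0.43 (adjusted p = 0.0997). GNPNAT1 passed in GFP-negative cells in the fit of all 12 libraries (0.45, adjusted p = 0.0455).

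GFPT1 has a paralogue, GFPT2, which did not rise. GFPT2 fell from 12.2 ± 0.736 to 8.05 ± 1.61 CPM (log2 -0.53, adjusted p = 0.0378), and in GFP-negative cells the log2 change was -0.60 (adjusted p = 0.0741). The GFPT2 call was lost with library size alone (-0.42) and on leaving out control replicate 1 (-0.47), 2 (-0.56) or 3 (-0.56) or treated replicate 1 (-0.53) or 2 (-0.40). Per kilobase of transcript, the GFPT1 level over the GFPT2 level was 1.43, 1.53 and 2.36 in GFP-positive controls and 11.8, 11.9 and 9.69 after treatment. In GFP-negative cells the ratio was 0.913, 1.30 and 1.56 in controls and 9.96, 8.14 and 7.57 after treatment. The ratio was 6.41 and 6.92 times higher with treatment.

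In GDP-mannose supply, PMM2 and GMPPB rose in both fractions. PMM2, the phosphomannomutase whose loss causes the most common congenital disorder of glycosylation, lies at chr16:8788823-8862534 and has exons overlapping 3 genes on the opposite strand. It held 22.04, 18.5 and 17.9 CPM in GFP-positive controls and 80.3, 77.9 and 91.4 CPM after treatment (log2 2.17, SE 0.18, adjusted p = 8.06e-18). In GFP-negative cells it held 51.7, 39.1 and 34.6 CPM in controls and 108, 99.6 and 126 CPM after treatment (log2 1.39, SE 0.19, adjusted p = 0.000485). The treated libraries were above the controls in both fractions, and the GFP-positive controls were the lowest of the 4 groups. GMPPB, the catalytic subunit that makes GDP-mannose, rose from 34.3 ± 4.91 to 66.5 ± 13.96 CPM in GFP-positive cells (log2 1.03, adjusted p = 1.28e-06) and from 33.6 ± 1.58 to 84.8 ± 12.8 CPM in GFP-negative cells (log2 1.31, adjusted p = 0.000324). Its GFP-positive fold change lay at the limit of 2 and was under it in 7 of 15 alternatives.

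GMPPA is the regulatory partner of GMPPB. GFP-positive controls held 19.3, 25.7 and 17.1 CPM and treated libraries 22.5, 25.9 and 18.3 CPM, so the groups overlapped (log2 0.17, SE 0.20, adjusted p = 0.487). With the GC trend removed GMPPA passed there as well (0.43, adjusted p = 0.0349). GFP-negative controls held 37.2, 31.8 and 28.2 CPM and treated libraries 78.4, 63.8 and 90.1 CPM, all above (log2 1.23, SE 0.19, adjusted p = 0.000847). Per kilobase, GMPPA over GMPPB fell from 1.24 ± 0.102 to 0.731 in GFP-positive cells, with all treated libraries below the controls, and was 1.99 ± 0.301 and 1.88 in GFP-negative cells, where the groups overlapped.

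The upstream sequence of the members was read from RefSeq promoter windows on GRCh38.p14, each with 250 bases before the transcription start and 50 after, of which 38 of the 43 members had at least 1. RPN1, STT3B, TUSC3, ALG10 and MOGS had none in the table. These windows were searched on both strands for elements through which ER stress factors are known to act. The ER stress response element ERSE (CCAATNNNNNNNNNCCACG) was present in the windows of 1 of 38 members, against 0.0916% of all 27305 symbols. ERSE-II (ATTGGNCCACG) was present in 0 members, against 0.0696% of symbols. The XBP1/ATF6 element TGACGTGG was present in 1 member, against 0.927% of symbols, and the ATF4 element TTGCATCA in 0, against 1.08%. The member with ERSE was ALG12, whose RNA did not pass the test in either fraction (log2 0.13 and -0.01), and the member with TGACGTGG was DHDDS, on the opposite strand from 7 bases before the start, which rose. The next search was chosen after these values were seen. The CCACG shared by ERSE and ERSE-II, and by TGACGTGG on its other strand, occurred in the 250 bases before a start in 26 of 38 members (68.4%), against 37.5% of all symbols and 51.3% of symbols tested in GFP-positive cells. The median GC content of these stretches was 61.2% for the members' windows, 58% for all and 64.4% for the tested genes. The stretches below are at most 120 bases each and belong to the strongly raised PGM3, with both of its windows, NUS1, GFPT1 and STT3A, and to ALG12 for its ERSE match. The 250 bases before the start held CCACG 3 times in the first PGM3 window, 0 times in the second, 4 times for NUS1, 3 times for GFPT1 and 0 times for STT3A, so that the GFPT1 matches lie outside the bases shown. They run 5′ to 3′ on the gene's strand, lie before the start of a RefSeq transcript without bases of the gene's annotated exons, and carry CCACG or its reverse complement CGTGG, and in ALG12 the whole ERSE match, in capitals. Their positions are chr6:83193294-83193413 and chr6:83193937-83194056 (minus strand) for PGM3, chr6:117675349-117675468 (plus) for NUS1, chr2:69387251-69387370 (minus) for GFPT1, chr11:125592699-125592818 (plus) for STT3A and chr22:49918529-49918597 (minus) for ALG12. The first PGM3 stretch and that of STT3A lie inside the annotated span of the gene, because another annotated transcript starts farther upstream.
PGM3, first window: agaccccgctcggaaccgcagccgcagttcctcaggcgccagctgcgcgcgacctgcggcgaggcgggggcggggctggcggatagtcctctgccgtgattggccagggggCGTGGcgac
PGM3, second window: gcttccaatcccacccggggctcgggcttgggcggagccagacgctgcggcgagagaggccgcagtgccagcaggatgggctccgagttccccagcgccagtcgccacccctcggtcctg
NUS1: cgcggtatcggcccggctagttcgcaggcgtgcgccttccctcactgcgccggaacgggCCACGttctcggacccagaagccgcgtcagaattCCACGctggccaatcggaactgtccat
GFPT1: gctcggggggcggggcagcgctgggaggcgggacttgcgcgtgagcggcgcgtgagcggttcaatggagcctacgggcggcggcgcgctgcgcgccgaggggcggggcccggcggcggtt
STT3A: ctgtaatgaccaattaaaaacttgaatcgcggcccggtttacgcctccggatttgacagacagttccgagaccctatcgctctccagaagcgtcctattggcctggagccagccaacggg
ALG12: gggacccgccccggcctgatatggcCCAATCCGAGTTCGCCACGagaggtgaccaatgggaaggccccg

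The dolichol group split. DHDDS and NUS1, the 2 subunits of cis-prenyltransferase, which makes the polyprenyl chain of dolichol, both rose. NUS1 (chr6:117675469-117710727, plus strand) held 13.9, 11.1 and 14.98 CPM in GFP-positive controls and 40.2, 46.7 and 53.5 CPM after treatment (log2 1.89, SE 0.20, adjusted p = 1.13e-13), and rose by 1.57 in GFP-negative cells (adjusted p = 0.00085). DHDDS rose from 56.8 ± 6.20 to 113 ± 17.5 CPM in GFP-positive cells (log2 1.07) and from 45.4 ± 1.22 to 115 ± 16.8 CPM in GFP-negative cells (log2 1.32). SRD5A3 and DOLK, which act later on the chain, did not pass the test. SRD5A3, a reductase needed in the conversion of polyprenol to dolichol, had log2 fold changes of 0.25 and -0.10 in the GFP-positive and GFP-negative comparisons, and DOLK, the dolichol kinase, had -0.23 and 0.12.

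DPM1, DPM2 and DPM3 form dolichol-phosphate-mannose synthase, of which DPM1 is the catalytic subunit. DPM1 held 17.0, 10.8 and 12.3 CPM in GFP-positive controls and 24.5, 31.0 and 37.4 CPM after treatment (log2 1.28, SE 0.21, adjusted p = 1.95e-07). In GFP-negative cells DPM1 rose by 0.90 (adjusted p = 0.0259), a call that was lost with the GC trend removed (0.55) and when control replicate 2 (0.80), treated replicate 1 (0.97) or treated replicate 3 (0.56) was left out. The anchor subunits DPM2 and DPM3 had log2 fold changes of 0.14 and -0.40 in GFP-positive and 0.04 and 0.02 in GFP-negative cells, none of which passed. In GFP-positive cells DPM2 was higher with the GC trend removed (0.46, adjusted p = 0.0117), and DPM3 was lower without control replicate 3 (-0.62) or treated replicate 2 (-0.62). Whether DPM1 differed from DPM2 and DPM3 was not tested.

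MPDU1, which is needed for the use of dolichol-linked mannose and glucose in the lumen, was the only member called lower. GFP-positive controls held 64.7, 76.5 and 52.6 CPM and treated libraries 42.8, 47.7 and 42.7 CPM, all below (log2 -0.47, SE 0.17, adjusted p = 0.0191). This call did not hold when scaling used library size alone (-0.35, adjusted p = 0.0839), with the GC trend removed (-0.32), or without control replicate 1 (-0.47, adjusted p = 0.0519), control replicate 2 (-0.34) or treated replicate 1 (-0.45). In GFP-negative cells the log2 change was 0.03 with overlapping groups. MPDU1 has exons that overlap 3 genes on the opposite strand.

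**Figure D2:**
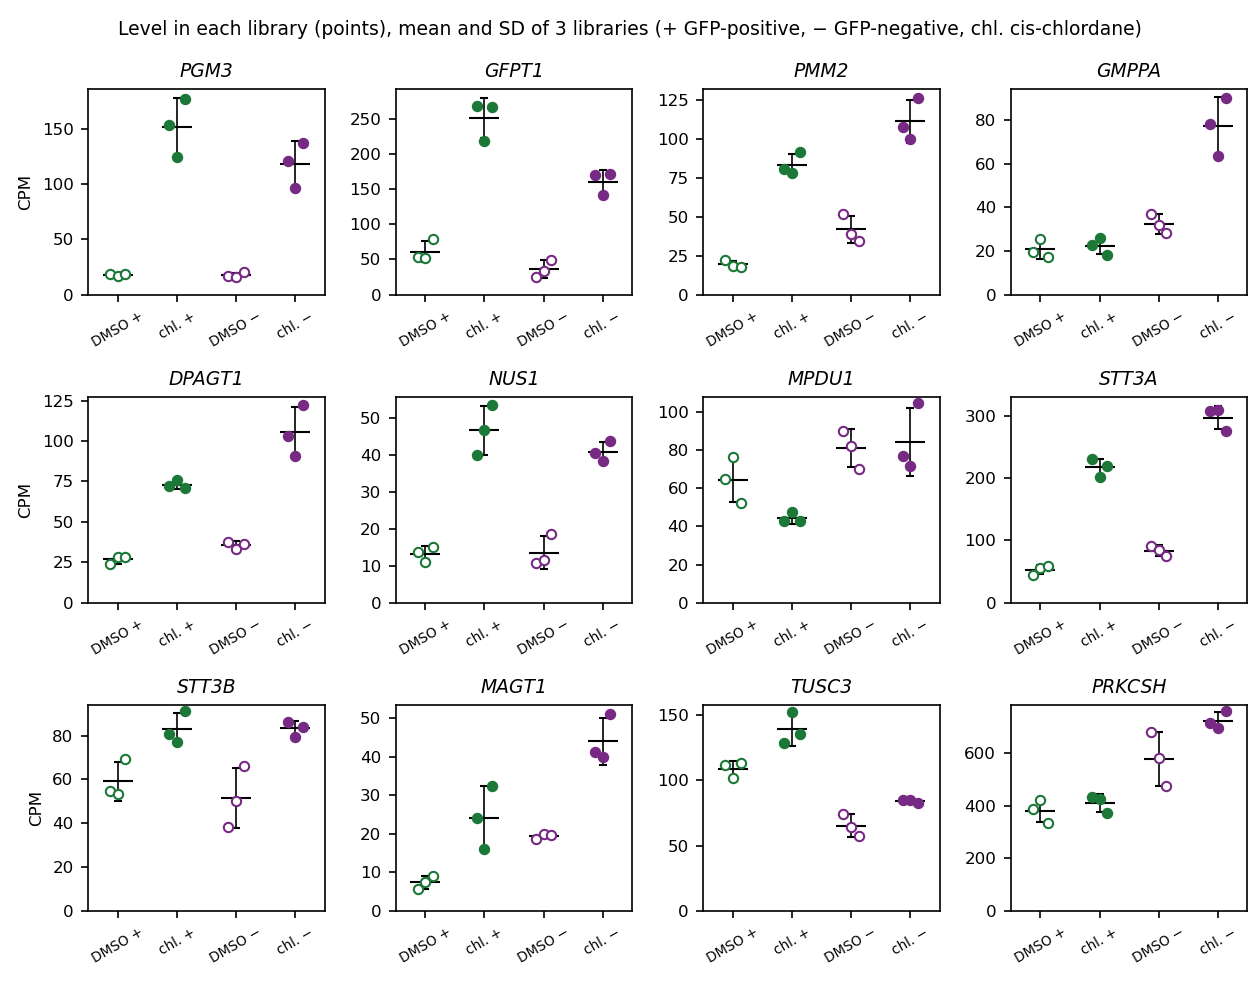
CPM (y axis, from 0) of 12 members in each of the 12 libraries, with DMSO libraries as open points, cis-chlordane libraries as filled points, GFP-positive cells in green, GFP-negative cells in purple, and the mean and SD of 3 libraries in black. PGM3, GFPT1, PMM2, DPAGT1, NUS1 and STT3A separate in both fractions, whereas GMPPA separates in GFP-negative cells and overlaps in GFP-positive cells.

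Among the ALG transferases, 9 of 13 were upregulated in GFP-positive cells (26.7% of all genes) and 7 of 13 in GFP-negative cells (15.4% of all genes). DPAGT1, which starts the oligosaccharide and is the target of tunicamycin, held 23.8, 28.4 and 28.0 CPM in GFP-positive controls and 72.3, 75.9 and 70.9 CPM after treatment (log2 1.52, SE 0.18, adjusted p = 8.89e-12). In GFP-negative cells it rose by 1.54 (SE 0.17, adjusted p = 0.000134), from 35.7 ± 2.35 to 105 ± 15.8 CPM. ALG13, the catalytic subunit of the enzyme for the second N-acetylglucosamine, rose by 1.12 and 0.95 in the GFP-positive and GFP-negative comparisons. Its membrane partner ALG14 had a log2 fold change of 0.47 in GFP-positive cells (adjusted p = 0.0611) and rose by 1.15 in GFP-negative cells (adjusted p = 0.0094), where the call was lost without control replicate 2 (1.07, adjusted p = 0.0538). With library size alone ALG14 passed in GFP-positive cells (0.58, adjusted p = 0.0272).

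The cytosolic mannosyltransferases were uneven. ALG2 held 14.5, 15.9 and 19.2 CPM in GFP-positive controls and 35.2, 26.5 and 52.4 CPM after treatment (log2 1.28, adjusted p = 4.31e-07) and rose by 1.49 in GFP-negative cells (adjusted p = 0.000305). ALG1, which adds the first mannose, had log2 fold changes of -0.04 and 0.42, neither of which passed. ALG11, which adds the last cytosolic mannoses, was low, at 1.72 ± 0.462 CPM in GFP-positive controls, and its log2 fold changes of 0.30 and 0.98 did not pass either. In GFP-negative cells ALG11 passed with the length trend removed (1.08, adjusted p = 0.0421) or without control replicate 3 (1.42, adjusted p = 0.0209). Its reads are uncertain, since its exons overlap those of another protein-coding gene on the same strand.

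Of the mannosyltransferases of the lumen, ALG3, which adds the first of these mannoses, rose in both fractions, from 42.2, 55.8 and 40.3 to 126, 136 and 123 CPM in GFP-positive libraries (log2 1.54, SE 0.17, adjusted p = 6.36e-13) and by 1.58 in GFP-negative cells (adjusted p = 0.000463). ALG9 rose from 49.5 ± 3.44 to 78.5 ± 1.19 CPM in GFP-positive cells (log2 0.74, adjusted p = 0.000136) and by 0.64 in GFP-negative cells, a call that was lost without control replicate 2 (0.64, adjusted p = 0.0575) or treated replicate 1 (0.57, adjusted p = 0.0712). ALG12 held 35.6 ± 4.52 CPM in controls and 37.0 ± 3.98 CPM after treatment in GFP-positive cells and did not pass in either fraction.

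ALG5, which makes dolichol-phosphate-glucose, rose from 16.0, 11.7 and 12.8 to 26.2, 37.2 and 34.8 CPM in GFP-positive libraries (log2 1.35, SE 0.20, adjusted p = 2.76e-08). It rose by 1.08 in GFP-negative cells (adjusted p = 0.0239), where the call was lost with the GC trend removed (0.82) and when control replicate 2 (1.05), treated replicate 1 (1.10) or treated replicate 3 (0.94) was left out. The glucosyltransferases that use this donor were called in GFP-positive cells alone. ALG6 rose by 0.84 (adjusted p = 0.00526), ALG8 by 0.53 (adjusted p = 0.0223) and ALG10 by 0.84 (adjusted p = 0.0376), while their log2 fold changes in GFP-negative cells were -0.05, 0.04 and 0.22. None of these 3 calls held with the GC trend removed, at 0.20 for ALG6, 0.22 for ALG8 and 0.29 for ALG10. The ALG8 call was also lost without control replicate 1 (0.50), control replicate 2 (0.48) or treated replicate 2 (0.45). ALG10 had about 1 to 2 CPM, and its call was lost in 9 of 15 alternatives, among them those leaving out control replicate 1 (0.61), control replicate 2 (0.77), treated replicate 1 (0.85) or treated replicate 3 (0.75). ALG10 and ALG10B are near-identical copies, so reads that match both could not be assigned with certainty.

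Among the OST subunits, 7 of 11 were upregulated in GFP-positive cells (26.7% of all genes) and 8 of 11 in GFP-negative cells (15.4% of all genes). OST exists as an STT3A complex, which acts on proteins as they enter the ER, and an STT3B complex, which glycosylates sites that were skipped. STT3A (chr11:125591712-125625215, plus strand) held 45.2, 55.1 and 58.9 CPM in GFP-positive controls and 230, 203 and 219 CPM after treatment (log2 2.11, SE 0.16, adjusted p = 2.45e-19). In GFP-negative cells it held 91.1, 85.3 and 74.5 CPM in controls and 307, 309 and 275 CPM after treatment (log2 1.81, SE 0.15, adjusted p = 3.07e-05). All treated libraries were far above all controls. STT3A has exons overlapping another protein-coding gene on the same strand, so part of its reads may be uncertain.

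STT3B rose less. GFP-positive controls held 54.9, 53.2 and 69.3 CPM and treated libraries 80.6, 77.0 and 91.2 CPM (log2 0.56, SE 0.17, adjusted p = 0.00351), a call that was lost with the GC trend removed (0.15, adjusted p = 0.328). In GFP-negative cells STT3B rose by 0.67 (adjusted p = 0.0287), and this call was lost when scaling used library size alone (0.59) and when control replicate 2 (0.65), treated replicate 1 (0.62) or treated replicate 3 (0.65) was left out. Per kilobase of transcript, STT3A over STT3B was 0.750, 0.946 and 0.775 in GFP-positive controls and 2.61, 2.40 and 2.20 after treatment. It was 2.17, 1.55 and 1.03 in GFP-negative controls and 3.25, 3.56 and 2.99 after treatment. In GFP-positive cells STT3A was thus, per kilobase, the lower of the pair in each control library and the higher in each treated library. The order in controls depends on the transcript lengths used, since in CPM control replicate 2 held 55.1 for STT3A and 53.2 for STT3B.

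Subunits that go with one complex or the other were also compared. OSTC, a subunit of the STT3A complex, held 22.5, 16.9 and 23.2 CPM in GFP-positive controls and 55.5, 63.9 and 83.9 CPM after treatment (log2 1.78, SE 0.19, adjusted p = 2.6e-13) and rose by 1.57 in GFP-negative cells (adjusted p = 0.00114). KRTCAP2, the other subunit of that complex, had log2 fold changes of 0.10 and 0.37 that did not pass. Without control replicate 1, KRTCAP2 was higher in GFP-negative cells (0.67, adjusted p = 0.0148). Its exons overlap those of another gene on the same strand. OSTC over KRTCAP2 per kilobase was 0.146 ± 0.0506 in GFP-positive controls and 0.447 after treatment, and 0.201 ± 0.0175 and 0.453 in GFP-negative cells.

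MAGT1 and TUSC3 are alternative oxidoreductase subunits of the STT3B complex. MAGT1 held 5.56, 7.58 and 9.001 CPM in GFP-positive controls and 24.1, 15.9 and 32.3 CPM after treatment (log2 1.78, SE 0.23, adjusted p = 1.99e-09) and rose by 1.15 in GFP-negative cells (adjusted p = 0.000997). TUSC3 held 111, 102 and 113 CPM in GFP-positive controls and 129, 153 and 136 CPM after treatment (log2 0.42, SE 0.16, adjusted p = 0.0195). The TUSC3 call was lost without control replicate 2 (0.37) or treated replicate 2 (0.34), and with the GC trend removed the estimate turned to -0.08 (adjusted p = 0.617). In GFP-negative cells the TUSC3 log2 fold change was 0.34 (adjusted p = 0.124), and it passed there in the fit of all 12 libraries (0.36, adjusted p = 0.045). MAGT1 over TUSC3 per kilobase was 0.0558 ± 0.0130 in GFP-positive controls and 0.145 after treatment, and 0.248 ± 0.0379 and 0.430 in GFP-negative cells, so that TUSC3 was the higher of the pair in every group.

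**Figure D3:**
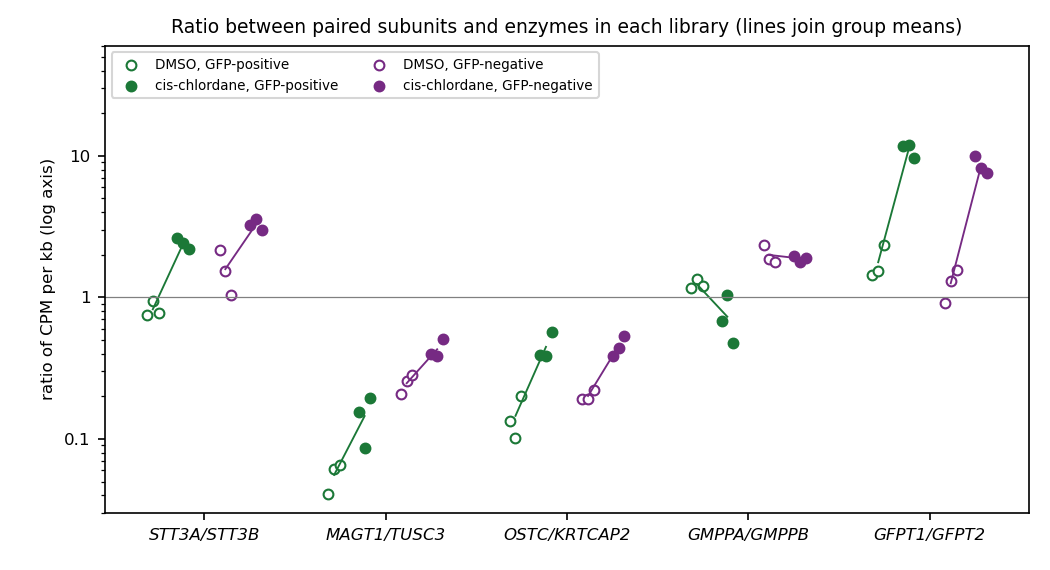
Ratio of the levels per kilobase of 5 pairs of subunits or enzymes (y axis, log scale) in each library, with DMSO open, cis-chlordane filled, GFP-positive cells green, GFP-negative cells purple, and lines joining group means. STT3A over STT3B crosses 1 in GFP-positive cells, and GFPT1 over GFPT2 shows the largest change, 6.41 and 6.92 times.

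These ratios gave 10 comparisons over 5 pairs of genes and the 2 fractions. In 9 of them the groups were fully apart, with an exact two-sided permutation p of 0.1 (adjusted p = 0.111), which is the smallest that 3 against 3 libraries allow. The exception was GMPPA over GMPPB in GFP-negative cells (p = 0.9 by the same exact permutation test). The share of all gene pairs whose ratio separates was not computed. Of single genes, 26.7% separated upward and 30.8% downward with treatment in GFP-positive cells, and 24.2% and 22.4% in GFP-negative cells.

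The shared OST subunits rose unevenly. RPN1, a large structural subunit, held 301, 352 and 312 CPM in GFP-positive controls and 584, 537 and 643 CPM after treatment (log2 0.94, SE 0.16, adjusted p = 7.5e-07) and rose by 1.18 in GFP-negative cells (adjusted p = 0.000472). DAD1, named for cell death after its loss, rose by 0.76 (adjusted p = 6.02e-05) and 1.12 (adjusted p = 0.00386). DDOST held 165, 216 and 171 CPM in GFP-positive controls and 189, 193 and 220 CPM after treatment, which overlapped (log2 0.20, adjusted p = 0.291), and rose from 280 ± 26.7 to 520 ± 84.6 CPM in GFP-negative cells (log2 0.87, adjusted p = 0.00294). RPN2 had a log2 fold change of 0.28 in GFP-positive cells (adjusted p = 0.132) and rose by 0.52 in GFP-negative cells (adjusted p = 0.0419), a call that was lost without control replicate 2 (0.51), control replicate 3 (0.39) or any of treated replicates 1 to 3 (0.48, 0.51 and 0.55). With library size alone RPN2 passed in GFP-positive cells (0.38, adjusted p = 0.0195). OST4, the smallest subunit, had log2 fold changes of -0.27 and 0.21, neither of which passed.

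Of the 3 trimming glucosidase genes, 1 passed the test in GFP-positive cells, upward, and 0 in GFP-negative cells. Of all genes, 26.7% and 15.4% were called higher in these fractions. MOGS, glucosidase I, rose from 77.9 ± 5.11 to 97.1 ± 8.77 CPM in GFP-positive cells (log2 0.39, SE 0.16, adjusted p = 0.0371), and the call was lost in 7 of 15 alternatives, with RLE scaling (0.36), without a filter on low counts (0.38), in a fit of all 12 libraries (0.32), and on leaving out control replicate 1 (0.38), control replicate 3 (0.34), treated replicate 1 (0.37) or treated replicate 3 (0.32). In GFP-negative cells the MOGS log2 fold change was 0.44 (adjusted p = 0.062), and it passed there with DESeq2 (0.44), in the fit of all 12 libraries (0.46), with the GC (0.66) or length trend (0.45) removed and without treated replicate 2 (0.54). GANAB, the catalytic subunit of glucosidase II, held 303, 397 and 348 CPM in GFP-positive controls and 350, 339 and 300 CPM after treatment, and its log2 fold changes were -0.01 (95% interval -0.32 to 0.30) and 0.22 in GFP-negative cells. PRKCSH, the regulatory subunit, had 0.18 and 0.30. With the GC trend removed PRKCSH passed the test in both fractions, at 0.52 (adjusted p = 0.00105) and 0.53 (adjusted p = 0.0181).

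Levels can be compared between genes per kilobase of transcript. In GFP-positive controls the highest members were OST4 at 186, PRKCSH at 182, RPN1 at 141, KRTCAP2 at 141 and DAD1 at 112 CPM per kb, and the lowest of those tested were ALG11 at 0.264 and ALG10 at 0.415 CPM per kb. PGM3 stood at 2.95 and NUS1 at 2.78 CPM per kb, among the lower values. After treatment PGM3 reached 24.9 CPM per kb in GFP-positive and 19.4 CPM per kb in GFP-negative cells, and RPN1, at 258 CPM per kb, became the highest member in GFP-positive cells.

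In DMSO controls, GFP-positive were compared with GFP-negative cells. Of 42 members tested, 1 was higher (17% of 15404 genes) and 18 were lower (22.9% of genes), with 5 at least 2-fold lower (15.1% of genes). The median log2 difference, GFP-positive minus GFP-negative, was -0.43 for the members and -0.02 for all genes tested. In 18 members all GFP-positive controls lay below all GFP-negative controls and in 5 above, against 23.8% and 29.5% of all genes. With the GC trend removed the members lower numbered 11, against 3065 of 14638 genes, and the median was -0.21. With the length trend removed they numbered 10, against 2990 of 14638 genes, with a median of -0.15. The median over all genes rose to 0.14 and 0.15 in these fits. GFP-positive and GFP-negative libraries of the same replicate number were taken as sorts of the same culture, though the titles give only that number. With it as a block 22 members were lower and 2 higher, against 4299 and 3723 of 15404 genes.

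The largest differences lay in genes of several roles. DPM3 held 17.6, 21.96 and 11.9 CPM in GFP-positive and 58.2, 41.0 and 39.3 CPM in GFP-negative controls (log2 -1.54, SE 0.25, adjusted p = 0.00073). MAGT1 held 5.56 to 9.001 CPM against 18.7 to 19.95 CPM (log2 -1.51, adjusted p = 0.000391), ALG8 15.2 to 17.9 CPM against 38.6 to 45.4 CPM (log2 -1.45, adjusted p = 9.07e-05), GNPNAT1 10.7 to 11.6 CPM against 22.4 to 27.8 CPM (log2 -1.32, adjusted p = 0.000298), and PMM2 17.9 to 22.04 CPM against 34.6 to 51.7 CPM (log2 -1.21, adjusted p = 0.000663). None of these 5 overlapped between the fractions. OSTC was lower by 0.97 on the log2 scale, and STT3A (-0.77), DDOST (-0.72), PRKCSH (-0.71) and GANAB (-0.63) were also lower, each in all 15 alternatives.

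TUSC3 was the exception, at 111, 102 and 113 CPM in GFP-positive and 74.3, 64.0 and 57.2 CPM in GFP-negative controls (log2 0.63, SE 0.14, adjusted p = 0.00551), also in all 15 alternatives. GFPT1 was higher in each GFP-positive control as well (log2 0.64), with an adjusted p of 0.0862 that became 0.00146 with the replicate number as a block. GFPT1 also passed without a block, with DESeq2 (adjusted p = 0.0313) and in the fit of all 12 libraries (0.0108). It passed as well with the GC (adjusted p = 0.0061) or length trend (0.011) removed and without GFP-negative replicate 3 (0.000539). SRD5A3, MPDU1, RPN2 and KRTCAP2 were lower with the replicate block, with adjusted p of 0.0445, 0.00903, 0.0187 and 0.0157, and did not pass in the main fit. Without a block these genes passed on leaving out GFP-negative replicate 3 (adjusted p = 0.00824, 0.0251, 0.0191 and 0.0149).

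The other calls in this comparison were less stable. The calls of DPM1 (-0.70), DPM2 (-0.71), DPAGT1 (-0.53), ALG3 (-0.62), OST4 (-0.67), DAD1 (-0.49) and MOGS (-0.41) were lost with the GC trend removed, and each of these and GMPPA (-0.76) with the length trend removed. Leaving out 1 control library also ended calls. Without GFP-positive replicate 3 all 8 were lost, at -0.64 (DPM1), -0.60 (DPM2), -0.56 (DPAGT1), -0.53 (ALG3), -0.56 (OST4), -0.38 (DAD1), -0.37 (MOGS) and -0.63 (GMPPA). Leaving out GFP-positive replicate 1 ended those of DPM2 (-0.74), DPAGT1 (-0.45), ALG3 (-0.56), DAD1 (-0.49), MOGS (-0.40) and GMPPA (-0.70), and leaving out GFP-positive replicate 2 those of DPM1 (-0.54), DPM2 (-0.77), DPAGT1 (-0.54) and MOGS (-0.43). Leaving out GFP-negative replicate 2 ended those of DPM1 (-0.77), DPM2 (-0.75), DPAGT1 (-0.56), DAD1 (-0.52) and MOGS (-0.33), and GFP-negative replicate 1 those of DPM1 (-0.54) and DAD1 (-0.38).

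**Figure D4:**
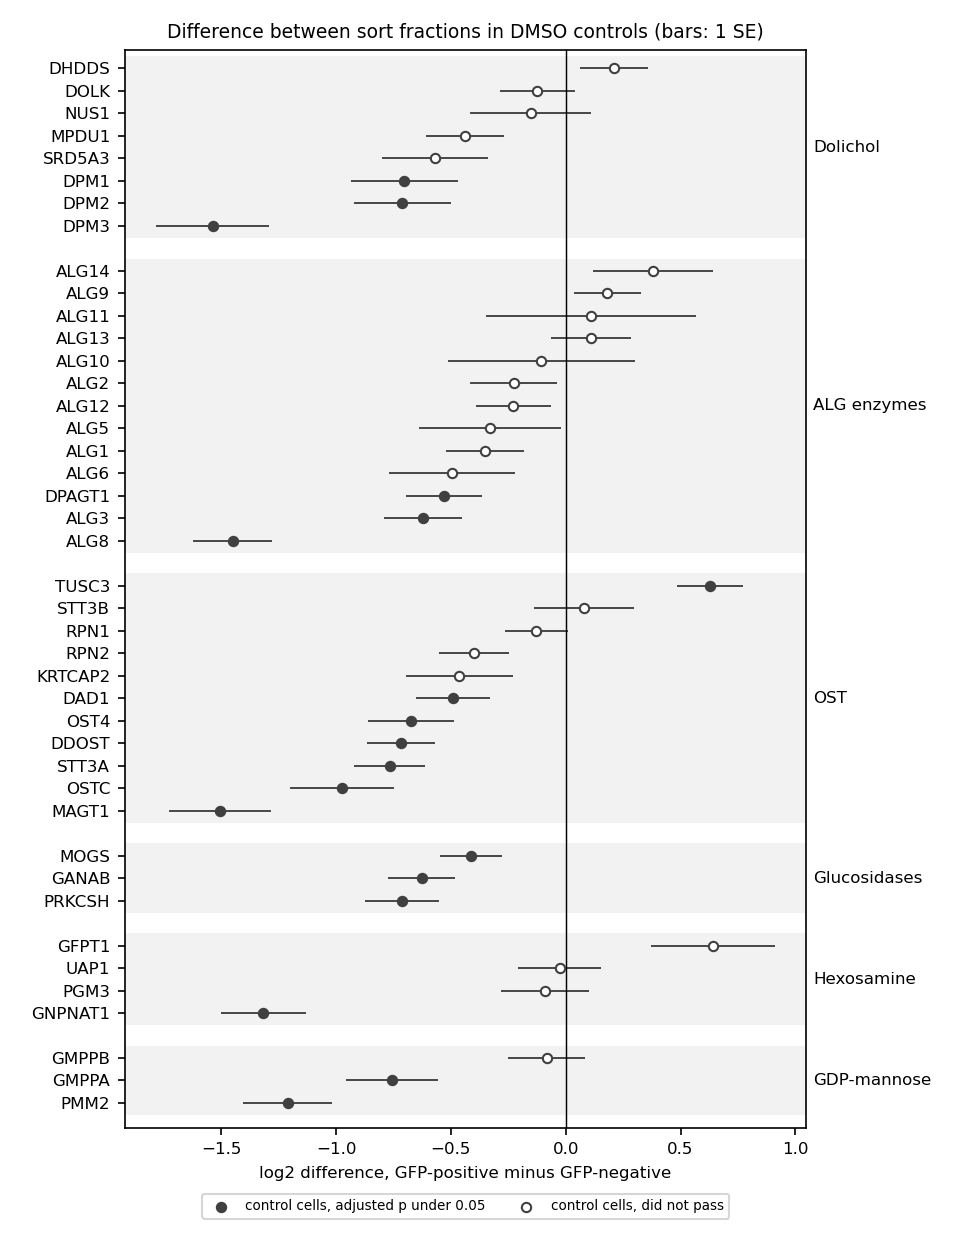
Log2 difference between GFP-positive and GFP-negative DMSO controls (x axis, GFP-positive minus GFP-negative, bars 1 SE of the edgeR fit) of the 42 members tested, grouped by role and filled where the adjusted p was under 0.05. TUSC3 is the filled point to the right of 0 at 0.63, and 18 members are filled to the left, with DPM3, MAGT1 and ALG8 farthest at -1.54, -1.51 and -1.45.

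Whether the response to cis-chlordane differed between the fractions was tested as an interaction over all 12 libraries, in a main fit that did not pair the sorts of a culture. Of 16226 genes, 161 were called higher and 198 lower in GFP-positive than in GFP-negative response, that is 0.992% and 1.22%, or 2.21% in either direction. Of the 42 members 0 were higher and 1 was lower, a count near these shares. That gene was GMPPA, with a difference of responses of -1.15 on the log2 scale (SE 0.28, adjusted p = 0.04). The GMPPA call was lost in 11 of 20 alternatives, with estimates between -1.27 and -0.86. It was lost without control GFP-positive replicate 1 (-1.19) or 2 (-0.94), treated GFP-positive replicate 1 (-0.99) or 3 (-0.86), control GFP-negative replicate 2 (-1.13) or 3 (-1.06), and treated GFP-negative replicate 1 (-1.14) or 3 (-1.01), as well as with RLE scaling (-1.08, adjusted p = 0.0523) library size alone (-0.88, adjusted p = 0.0817) and at least 10 counts in every library (-0.98).

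A block for the culture, taken from treatment and replicate number, pairs the 2 sorts. With this block DDOST was also lower in its GFP-positive response (-0.74, adjusted p = 0.0116, and -0.76 with adjusted p = 0.0847 in the main fit without the block), and PMM2 was higher (0.68, adjusted p = 0.0212, and 0.69 with adjusted p = 0.15 in the main fit). Without a block both also passed with DESeq2, DDOST at -0.69 (adjusted p = 0.0473) and PMM2 at 0.75 (adjusted p = 0.0457). PMM2 passed with library size alone too (0.94, adjusted p = 0.0399). For the other members no difference between the fractions was detectable with 3 libraries a group. The standard error of their interaction in the main fit ran from 0.19 for ALG9 to 0.56 for ALG11 on the log2 scale.

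Of 10 other genes of ER steps in the pathway, 6 were upregulated and 0 downregulated in each fraction. Of all genes, 26.7% and 24.6% were so called in GFP-positive cells, and 15.4% and 16.4% in GFP-negative cells. The median log2 fold change of the 10 was 0.87 in GFP-positive and 0.49 in GFP-negative cells. CANX, the lectin chaperone calnexin, rose from 296 ± 60.5 to 1088 ± 190 CPM in GFP-positive cells (log2 1.95) and from 291 ± 52.4 to 987 ± 8.04 CPM in GFP-negative cells (log2 1.74). LMAN1, a cargo lectin between ER and Golgi, rose by 1.89 and 1.75, and UGGT2, which is related to the folding sensor that adds glucose back, by 1.66 and 1.33. Of 10 other genes of sugar supply, 4 were upregulated and 1 downregulated in GFP-positive cells (26.7% and 24.6% of all genes), and 3 were upregulated and 0 downregulated in GFP-negative cells (15.4% and 16.4%). RENBP rose by 1.36 and 1.65, PGM1, which interconverts glucose phosphates, by 1.25 and 1.001, and SLC35A3, a Golgi carrier of UDP-N-acetylglucosamine, by 1.44 and 1.03. The SLC35A3 call in GFP-negative cells was lost with library size alone (0.95) and when control replicate 2 (0.97), treated replicate 1 (0.85) or treated replicate 3 (0.98) was left out.

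The 20 genes of Golgi processing and glycan release had no common direction. In GFP-positive cells 6 were upregulated and 4 downregulated (26.7% and 24.6% of all genes), with a median log2 fold change of -0.10. In GFP-negative cells 5 and 4 were (15.4% and 16.4% of all genes), with a median of 0.09. These counts lie near those shares. MAN1A1, a Golgi mannosidase, rose by 1.99 in GFP-positive cells (0.95 in GFP-negative cells, adjusted p = 0.0716) and MGAT2, which starts the second antenna, by 1.09 and 0.96. MAN1C1, another mannosidase of that family, fell from 23.4 ± 2.01 to 4.99 ± 0.901 CPM (log2 -2.16) in GFP-positive cells and by 1.45 in GFP-negative cells. MGAT5, which makes the branch of tri- and tetra-antennary glycans, held 432, 442 and 515 CPM in GFP-positive controls and 137, 132 and 119 CPM after treatment (log2 -1.77, adjusted p = 5.83e-16), and fell by 1.47 in GFP-negative cells. MGAT3, the bisecting enzyme, fell from 130 ± 7.38 to 61.8 ± 5.44 CPM in GFP-positive (log2 -1.005) and by 1.001 in GFP-negative cells, at the limit of 2-fold in both.

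Several measures moved together with these changes, and their part in them was not tested. HSPA5, the ER chaperone BiP, rose by 3.38 and 3.54 and XBP1, a transcription factor of the unfolded protein response, by 2.64 and 2.46 on the log2 scale in GFP-positive and GFP-negative cells. The sort markers were compared as well. ISL1 held 65.9 ± 3.18 CPM in control and 12.0 ± 3.72 CPM in treated GFP-positive cells, and MNX1 11.5 ± 2.26 and 4.52 ± 1.20 CPM, both lower with treatment. In GFP-negative cells ISL1 fell from 2.56 ± 0.189 to 0.549 ± 0.153 CPM (log2 -2.23, adjusted p = 0.0012) and MNX1 did not pass the test (4.33 and 4.81 CPM). The summed level of 7 motor neuron markers ran from 1179 to 1391 CPM in control and from 286 to 434 CPM in treated GFP-positive libraries, and from 195 to 217 CPM and 62.7 to 82.1 CPM in the GFP-negative libraries. All 7 were above 1 CPM in each group except treated GFP-negative cells, where 5 were. SLC18A3 carried most of the sum, at 793 and 171 CPM in control and treated GFP-positive cells. Unlike the rest of this list, LHX3 was lower in GFP-positive (1.92 CPM) than in GFP-negative controls (4.43 CPM). Bulk counts cannot tell fewer cells of a type from less RNA per cell.

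Among markers of other cells, 6 cycling genes summed to 64.2 to 96.7 CPM in control and 33.5 to 37.8 CPM in treated GFP-positive libraries, and to 530 to 659 CPM and 162 to 217 CPM in GFP-negative libraries. The 6 neural progenitor markers summed to 2878 to 3239 and 2326 to 3164 CPM in GFP-positive, and 5821 to 7790 and 7218 to 8231 CPM in GFP-negative libraries. VIM and NES carried this sum, and in GFP-positive cells PAX6 rose from 7.95 to 30.4 CPM (log2 2.01) while HES1 fell from 2.74 to 0.894 CPM (log2 -1.54). In GFP-negative cells VIM rose from 3852 to 6425 CPM (log2 0.71), whereas NES fell from 2628 to 1119 CPM (log2 -1.26). HES1 (log2 -1.49) and SOX9 (log2 -1.27) fell there as well, and SOX2 and PAX6 did not pass. The 6 neuron markers ran from 12110 to 15590 and 5866 to 7626 CPM in GFP-positive, and from 6118 to 6964 and 3773 to 4699 CPM in GFP-negative libraries. TUBB3 carried most of it, at 9533 and 3703 CPM in control and treated GFP-positive cells, whereas SNAP25 rose by 0.99 and 0.64 and SYT1 by 0.93 and 1.07 in the GFP-positive and GFP-negative comparisons. The SNAP25 call in GFP-negative cells was lost when control replicate 2 (0.65), treated replicate 1 (0.67) or treated replicate 3 (0.52) was left out. The 6 mesenchymal markers, of which 3 were above 1 CPM in GFP-positive cells, ran from 260 to 328 and 49.9 to 82.2 CPM there, and from 760 to 886 and 468 to 762.2 CPM in GFP-negative libraries, with LUM at 0 in treated GFP-positive cells. In GFP-negative cells the mean of COL1A1 fell from 596 to 281 CPM, while that of COL1A2 rose from 192 to 300 CPM. In GFP-positive cells both were lower with treatment. Astroglial markers summed to at most 19.4 CPM in any library, with AQP4 at 0 in control GFP-positive and treated GFP-negative cells, and oligodendrocyte lineage markers to at most 75.5 CPM, with SOX10 at 0 in control GFP-negative cells. The 4 pluripotency genes summed to 48.9 to 258 CPM over all libraries, but POU5F1 was at 0 in all 4 groups and NANOG in all but treated GFP-positive cells.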

How the data were processed

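The deposited table holds raw counts per gene symbol for 12 libraries. The authors mapped single-end reads from a stranded kit to hg38 with HISAT2 and an Ensembl GRCh38 annotation, and the submitters' processing notes name featureCounts for the counts. Their versions and the strand setting of counting are not given in the sources used here. Of the per-sample columns, 0 were left unused. With exons of 18 members overlapping genes on the opposite strand and of 8 on the same strand (22 in all), their reads may be partly shared.

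Groups and replicates came from the sample titles per the labels. CPM were computed after TMM scaling over all 12 libraries and are given as mean ± SD of 3 libraries. Differences were tested with the edgeR 4.0.16 quasi-likelihood F-test in R 4.3.3, with filterByExpr (minimum count 10, minimum total 15) and Benjamini-Hochberg adjustment over all genes tested, on the libraries compared, and on all 12 for the interaction. Calls used an adjusted p under 0.05, with a fold change of at least 2 where stated, and SE is that of the fitted log2 fold change. The procedure was tested on simulated counts. All 43 members may be named, HSPA5, XBP1, ISL1 and MNX1 serve as checks, and of other pathway genes up to 3 per list and direction with the largest change at least 2-fold in GFP-positive cells. GFPT2 was named outside this rule, as the paralogue of GFPT1. Among the markers TUBB3, SNAP25, SYT1, VIM, NES, PAX6, HES1, SOX2, SOX9, SLC18A3, LHX3, COL1A1 and COL1A2 were named after their values were seen. The members and lists were chosen with earlier results of these data known.

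Alternatives were DESeq2 1.42.0, scaling by RLE or by library size alone, testing without a filter or with 10 counts or more in each library, a replicate block, a fit of all 12 libraries, glmTreat, removal of a GC or length trend by loess (span 0.5) and each library left out. Gene positions, lengths and GC came from GENCODE 44 on hg38, with 25490 of 28278 symbols and 43 of 43 members matched. Promoter sequences came from RefSeq (GRCh38.p14). Figures used matplotlib.

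Across 11980 genes, deviations from group means of same-numbered GFP-positive and GFP-negative libraries correlated at 0.521, 0.249 and 0.606 in controls and at 0.213, 0.273 and 0.587 after treatment. Except for treated GFP-positive replicate 1, the best match of each GFP-positive library was the GFP-negative library of its number. On this they were taken as sorts of a culture, which the titles do not state. No libraries of a group agreed within counting noise. P-values measure the spread between these thaws, and the depth of at least 23414935 counts limits genes such as ALG10 and ALG11.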

Additional observations from a re-analysis of the deposited data

Results flagged for a closer look

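The response of GMPPA, the regulatory partner in GDP-mannose synthesis, was called different in the 2 sort fractions. The difference was -1.15 on the log2 scale (SE 0.28, adjusted p = 0.04 by the edgeR interaction test over 16226 genes, of which 2.21% were called). GMPPA was the 1 call among the 42 members, a count near that share. Its log2 fold change was 0.17 in GFP-positive and 1.23 in GFP-negative cells, and all 3 treated GFP-negative libraries lay above the controls. The call was lost in 11 of 20 alternatives.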

How the results depend on the processing

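Of the members called, 19 of 27 in GFP-positive cells, 18 of 24 in GFP-negative cells, 11 of 19 between control fractions and 0 of 1 in the interaction kept direction and call in each alternative run (15, 15, 15 and 20). The glmTreat test, which asks for a fold change above 2, is not among these alternatives and is given apart below. The only reversal was TUSC3 in GFP-positive cells with the GC trend removed (-0.083). In GFP-positive cells the members' median log2 fold change was 0.84 with library size alone, which moved the median of all genes from 0.03 to 0.14, so that relative to all genes it was 0.70 in both. With the GC trend removed the members' median was 0.45, and 0.49 relative to all genes. Members lower numbered 0 with library size alone and with the GC trend removed, and 0 to 2 with 1 library left out. Against a fold change of 2 (glmTreat), 9 members were higher in GFP-positive (922 of 15333 genes) and 5 in GFP-negative cells (452 of 15513 genes). By that test 2 members were lower between control fractions (1397 of 15404 genes). Between control fractions the median was -0.21 with the GC and -0.15 with the length trend removed. Members higher numbered 2 with DESeq2 and the fit of all 12 libraries, and 1 to 2 with 1 library left out. They numbered 3 with the GC and with the length trend removed (4244 and 4155 of 14638 genes). Members lower numbered 11 with the GC trend removed (3065 of 14638 genes) and 10 with the length trend removed (2990 of 14638 genes). With 1 library left out they numbered 10 to 23. For the interaction the median was 0.14 with library size alone, which moved that of all genes from -0.05 to 0.20 and the split of calls from 161 higher and 198 lower to 260 and 81. Members higher numbered 1 with library size alone and with DESeq2. Members lower numbered 0 with RLE scaling, library size alone and at least 10 counts in every library, 2 with DESeq2, and 0 to 1 with 1 library left out. The cause was not tested.

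With the culture so taken as a replicate block, members higher in the interaction numbered 1 and members lower 2 (542 and 811 of 16226 genes). Between control fractions members higher numbered 2 (3723 of 15404 genes). Deviations of same-numbered treated and control libraries correlated at -0.091, 0.239 and 0.279 in GFP-positive and 0.068, 0.31 and -0.12 in GFP-negative cells. The best match had the same number for GFP-positive replicates 2 and 3 and GFP-negative replicate 2 only. This cannot decide whether they shared a thaw, and the main fits left them unpaired. In the treatment comparisons the replicate block added ALG14 in GFP-positive cells (0.47, adjusted p = 0.0459).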
